A study of Mus musculus with 12 samples.

Results

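The clustered protocadherins are cell adhesion proteins of the cadherin superfamily, encoded by 3 tandem gene arrays called alpha, beta and gamma. They were taken here as every row of the deposited expression table whose gene symbol names a member of 1 of these arrays. The rule found 58 rows of 55487, with 14 in the alpha, 22 in the beta and 22 in the gamma cluster. They carry 57 symbols, since the identifiers ENSMUSG00000007440 and ENSMUSG00000102206 both map to Pcdha11. The RNA came from germ cells of the mouse testis, which the labels call gonocytes (germ cells that have not yet become spermatogonia). The mice carried an Mvh-Venus transgene, a fluorescent reporter of the germ cell gene Mvh. There were 12 libraries, 3 at each of embryonic days E13.5 and E16.5, birth (P0) and postnatal day 3 (P3).

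The sources differ on genotype. Titles and source names give WT for all 12 samples, while the genotype tag gives Morc1 (+/-) at E13.5 and P0 and Morc1 (-/-) at E16.5 and P3. Libraries were therefore grouped by stage alone. Each comparison of neighbouring stages also crosses the tag, so stage and tag cannot be told apart there, whereas P0 against E13.5 and P3 against E16.5 stay within 1 tag value. The labels do not say whether the 3 libraries of a stage came from separate animals, so p-values measure the spread between these libraries, which may be technical. Libraries are called by the numbers 1, 3 and 4 of the table's column heads.

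In each array, many variable exons stand one after another, and each has its own promoter and encodes the extracellular cadherin repeats and the membrane-spanning part of 1 protein. In the alpha and gamma clusters each variable exon is spliced to a set of constant exons at the end of the cluster, which encode a shared cytoplasmic tail; beta members have no constant exons. Neurons are known to express a varying set of members chosen promoter by promoter, with the DNA-binding protein CTCF and cohesin at active promoters and DNA methylation at silent ones. The proteins bind identical proteins on other cell surfaces and serve in self-avoidance of dendrites and axons and in neuron survival. The C-type members (Pcdhac1, Pcdhac2, Pcdhgc3, Pcdhgc4 and Pcdhgc5) lie last among the variable exons of their clusters and are chosen less at random than the others in neurons.

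All 58 rows lie on the forward strand of mouse chromosome 18 (GRCm38). The alpha cluster spans chr18:36930184-37187661, the beta cluster chr18:37264938-37524479 and the gamma cluster chr18:37661793-37841873. Each alpha row shares exon sequence with the 13 other alpha rows, and each gamma row with the 21 other gamma rows. The share of a row's exon bases that no other gene covers had a median of 46.4% in the alpha cluster (7.0% to 51.4%), 100% in the beta cluster (36.5% to 100%) and 54.7% in the gamma cluster (0% to 68.5%). How the counting treated a read that falls on exons of several genes is not given in the sources used here. The values may thus rest on the variable exons alone, and no value was found for the constant exons by themselves. Pcdhga10 has 0 exon bases of its own in this annotation and Pcdha4 has 404. Sequence likeness differed as well. A row's own 50-base words were searched for in the transcripts of all other genes, on either strand. The share found there had a median of 12.5% in the alpha cluster, 3.33% in the beta cluster and 1.03% in the gamma cluster. The highest shares were those of Pcdha7 (25.5%) and Pcdha6 (24.6%), and in the gamma cluster those of Pcdhgb1 (16.8%) and Pcdhgb2 (16.4%). These rows may thus share reads with other genes, members or not.

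Values are normalized counts, that is, the reads of a gene divided by 1 size factor per library. Reads recovered from the table numbered 40946616 to 51533747 per library. Members were scarce in every library. Their reads added up to 115 to 146 per library in the E13.5 group, 644 to 934 in the E16.5 group, 1856 to 2046 in the P0 group and 198 to 292 in the P3 group. Every ± below is an SD over the 3 libraries of a stage; standard errors are marked SE. Of the 58 rows, 20 had a read in at least 1 library at E13.5, against 42, 52 and 36 at the later stages (34.5%, 72.4%, 89.7% and 62.1%). Over all genes of the table these shares were 47.3%, 62.6%, 70.5% and 54.1%, also highest at P0. Rows above 3 reads in every library of a stage numbered 3, 16, 30 and 7 in that order (5.17%, 27.6%, 51.7% and 12.1% of the rows). Over all genes of the table the same shares were 31.0%, 38.9%, 46.6% and 35.1%. At E13.5 the 3 rows above that level were Pcdhga12, Pcdhgc3 and Pcdhgc4.

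**Figure D1:**
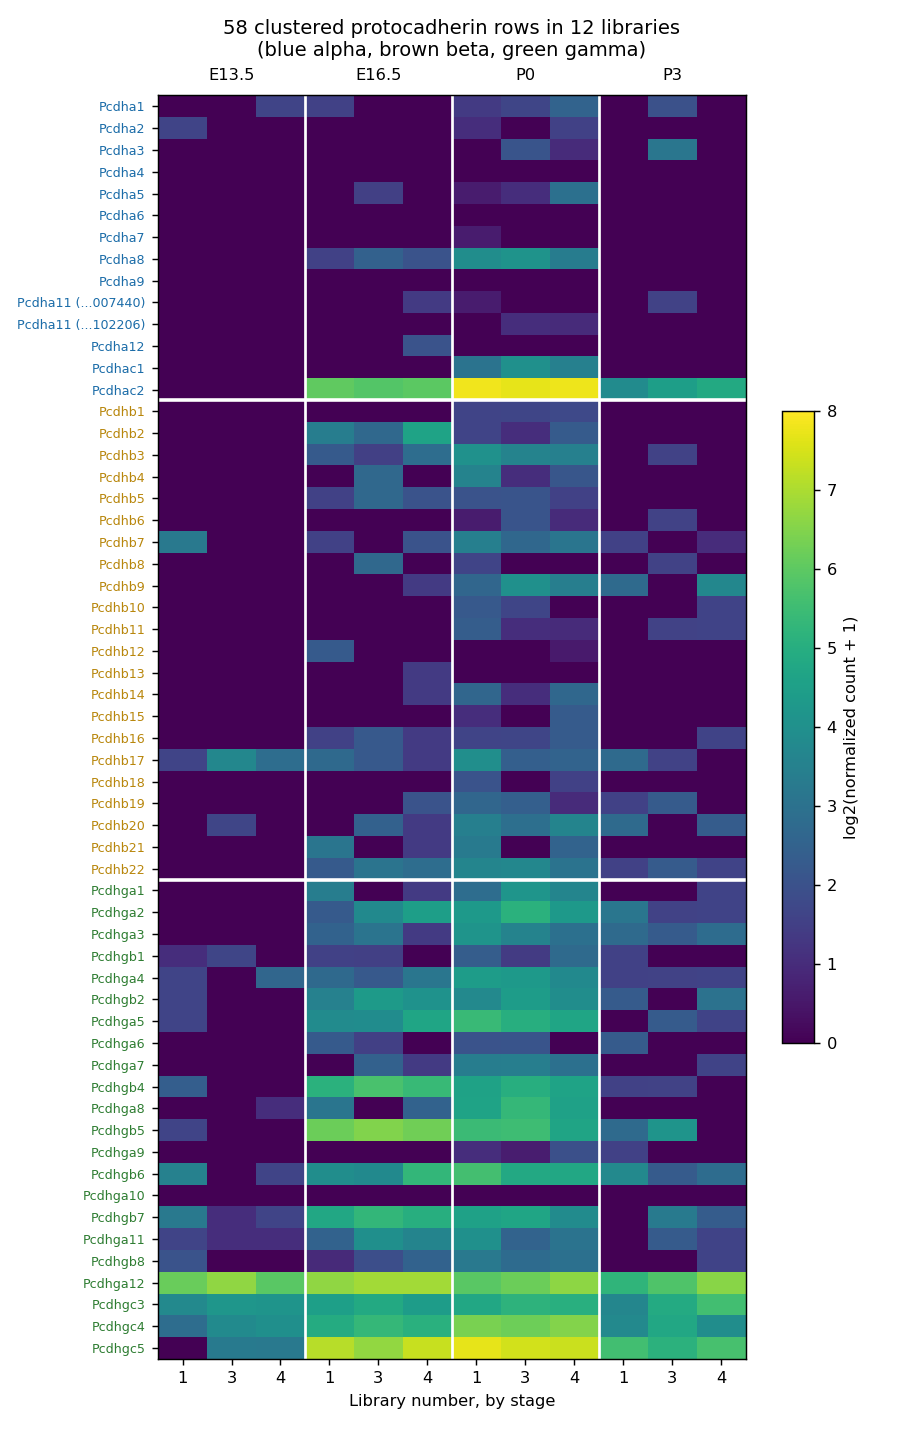
Heat map of log2(normalized count + 1) for the 58 clustered protocadherin rows, in gene order within each cluster, in the 12 libraries grouped by stage. The gamma rows and Pcdhac2 hold most of the signal, and Pcdhga12 is present in every library. At P0, 52 rows (89.7%) have a read against 20 (34.5%) at E13.5, beside 70.5% and 47.3% of all genes in the table.

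Of the 58 rows, 16 reached 10 normalized counts in at least 3 libraries and were tested: 1 alpha (Pcdhac2), 1 beta (Pcdhb3) and 14 gamma rows. The other 42 did not reach it, and 4 of them (Pcdha4, Pcdha6, Pcdha9 and Pcdhga10) had 0 reads in every library. Just inside the limit was Pcdhb3, whose third-highest value was 10.1, and just outside were Pcdhb9 (9.65), Pcdhga1 (9.54) and Pcdha8 (9.17). A row that passed only through the stage where it is high had to differ between stages, so the counts of called members below describe the members and support nothing. A zero here cannot be read as absence of the transcript. Taf7, which encodes a subunit of the general transcription factor TFIID, and Slc25a2 lie between the beta and gamma clusters and were both listed at 0 in every library, although no other gene's exon overlaps theirs in the annotation used; the cause was not tested.

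Across the 4 stages the clusters differed in level and in course. The summed normalized counts of the alpha cluster were 2.11, 0 and 2.10 in the 3 libraries at E13.5, 68.7, 63.2 and 69.6 at E16.5, 252, 247 and 256 at P0 and 13.6, 34.4 and 28.3 at P3. None of the stages overlapped in this sum. In stage order, the beta cluster summed to 10.3 ± 3.92, 46.9 ± 8.90, 94.2 ± 23.8 and 22.1 ± 3.95. For the gamma cluster the sums were 128 ± 16.1, 561 ± 53.5, 666 ± 43.0 and 196 ± 43.6. Gamma members thus made up 91.7% ± 1.16 of the sum over all members at E13.5 and 65.8% ± 1.90 at P0, while the alpha share went from 1.08% ± 0.944 to 24.9% ± 1.64. At P3 the alpha share was 10.3% ± 3.57, close to the 10.01% ± 1.02 at E16.5. A share within a library does not depend on the scaling between libraries.

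The part of the signal from the C-type members grew from stage to stage up to P0 and was lower again at P3. Their share of the sum over all members was 13.53%, 24.7% and 33.0% in the E13.5 libraries, 41.6%, 33.9% and 37.2% at E16.5, 51.4%, 50.4% and 54.2% at P0 and 43.9%, 45.6% and 46.9% at P3. No stages overlapped in this share. The gamma members outside the C-type (the A and B types) summed to 369 ± 47.2 at E16.5 and to 369 ± 36.7 at P0. With the deposited size factors, the summed gamma levels at these stages thus differed through the C-type rows. These sums depend on the scaling, and single A- and B-type rows moved both ways. Pcdhgb5 had a mean of 79.0 at E16.5 and 37.3 at P0, and Pcdhga8 had 4.13 and 28.6. The effective number of members, the inverse of the summed squared shares, was 3.07 ± 0.675 at the first stage and then 9.54 ± 0.781, 9.84 ± 0.667 and 7.66 ± 1.56. At E13.5, Pcdhga12 alone held 50.4% to 63.7% of the sum in each library. At P0 the leading row was Pcdhac2 in all 3 libraries, with 20.6% to 23.1%. Sums, shares and the effective number were not corrected for exon length, so rows with longer exons of their own weigh more. No test was made on sums or shares.

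**Figure D2:**
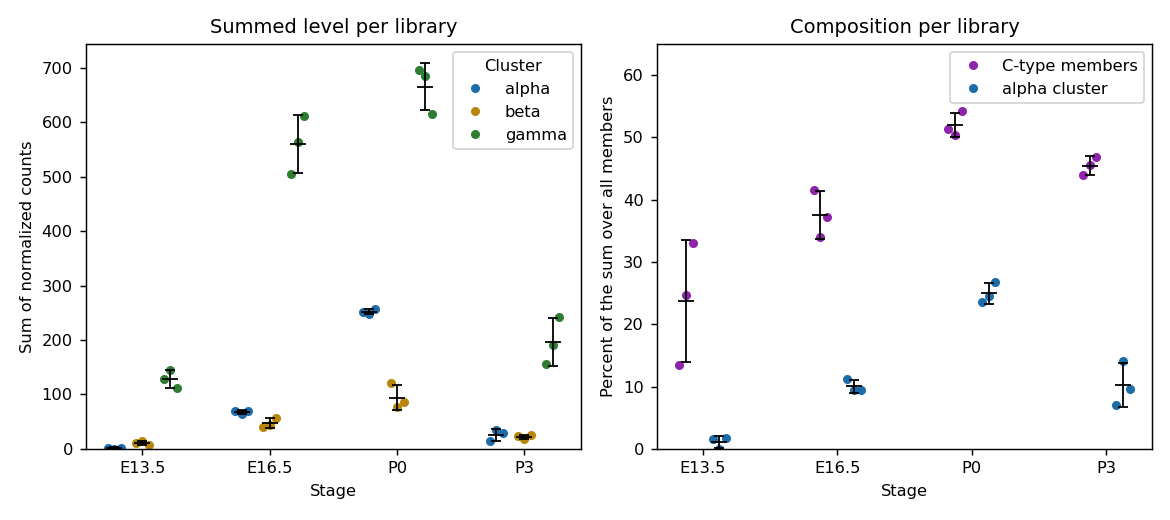
Left, summed normalized counts of the alpha, beta and gamma clusters by stage; right, the percent of the sum over all 58 rows taken by the C-type members and by the alpha cluster. Points are libraries and bars give mean and SD of 3 libraries; the alpha sum is 2.11 or less at E13.5 and 247 to 256 at P0, and the C-type share lies at 50.4% to 54.2% at P0.

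In the alpha cluster the signal was nearly all from Pcdhac2 (ENSMUSG00000102697, chr18:37143503-37187657), a C-type member known for the tiling of serotonergic axons. It had 0 reads in all 3 libraries at E13.5, and normalized counts of 64.9, 56.7 and 61.7 at E16.5, 226, 208 and 222 at P0 and 13.6, 21.6 and 28.3 at P3. No 2 stages overlapped. Against a floor of 3 reads per library at E13.5, Pcdhac2 was at least 19.1-fold higher at E16.5 (limma adjusted p = 6.31e-11) and at least 68.4-fold higher at P0 (limma adjusted p = 1.26e-12). It rose from E16.5 to P0 by 1.82 on the log2 scale (SE 0.340, limma adjusted p = 0.000203), from 207 to 1275 reads over the 3 libraries. From P0 to P3 it fell by 3.37 on the log2 scale (SE 0.340, limma adjusted p = 1.28e-07), and P3 was also lower than E16.5 (log2 fold change -1.54, SE 0.340, limma adjusted p = 0.000709).

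The remaining 13 alpha rows stayed below the limit for testing, with at most 87 reads each over the 12 libraries. Pcdhac1, the other C-type member of this cluster, had reads in no library outside P0, where its values were 7.31, 15.2 and 10.1. Pcdha8 had no reads at E13.5 or P3, 1.91, 4.65 and 3.17 normalized counts at E16.5 and 14.1, 16.3 and 9.17 at P0. For both rows the P0 libraries were the highest and did not overlap those of another stage. The alpha rows outside the C-type summed to 22.3 ± 3.48 at P0 and to 6.08 ± 2.08 at E16.5, small beside Pcdhac2.

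The beta members, whose genes lack the constant exons, were read at low level throughout. The highest value of any beta row was 23.7, in Pcdhb2 at E16.5 in library 4, where the other 2 libraries of that stage had 9.54 and 5.58. Pcdhb3 (ENSMUSG00000045498, chr18:37300799-37304585) was the only beta row tested. It had 0 reads at E13.5, values of 3.82, 1.86 and 6.33 at E16.5, 15.7, 10.9 and 10.1 at P0, and 0, 1.96 and 0 at P3. It rose from E16.5 to P0 (log2 fold change 1.48, SE 0.541, limma adjusted p = 0.0259) and fell by 3.18 on the log2 scale to P3 (SE 0.541, limma adjusted p = 5.14e-05), where 2 reads remained. The call for P0 against E16.5 was lost without E16.5 library 3 (limma adjusted p = 0.101), with a pseudocount of 0.1 (limma adjusted p = 0.201) and by DESeq2 (adjusted p = 0.169), and without a P0 library the row was not tested.

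Pcdhb22 and Pcdhb17 had the highest means of the cluster beside Pcdhb3. Pcdhb22 had 0 reads at E13.5, 3.82, 7.44 and 6.33 normalized counts at E16.5, 11.5, 11.95 and 7.24 at P0 and 1.94, 3.93 and 2.02 at P3. Pcdhb17 followed another course: 2.11, 11.97 and 6.31 at E13.5, 5.73, 3.72 and 1.58 at E16.5, 14.6, 4.35 and 4.83 at P0 and 5.81, 1.96 and 0 at P3. Its stages overlapped, and it accounted for most beta reads at E13.5, where only 3 of the 22 beta rows had any.

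Among the gamma members the C-type rows differed from one another. Pcdhgc5 (ENSMUSG00000102543, chr18:37819513-37841873) had values of 0, 8.71 and 8.41 at E13.5, 139, 104 and 159.9 at E16.5, 206, 176 and 164 at P0 and 46.5, 34.4 and 49.6 at P3. From E13.5 to E16.5 its mean rose 23.6-fold (log2 fold change 4.89, SE 0.609, limma adjusted p = 1.34e-06). That log2 value was 3.80 without E13.5 library 1, which had no read of this row, and 5.44 without E13.5 library 3, and it stayed called. Between E16.5 and P0 the libraries did not overlap, but the difference did not pass the test (log2 fold change 0.45, SE 0.609, limma adjusted p = 0.540). At P3 it was lower than at P0 (log2 fold change -2.05, SE 0.609, limma adjusted p = 0.00591).

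Pcdhgc4 (ENSMUSG00000023036, chr18:37815079-37841873), the gamma member known to be needed for neuron survival, reached its highest level at P0. The libraries held 6.33, 13.1 and 14.7 at E13.5, 29.6, 39.1 and 32.5 at E16.5, 83.0, 73.9 and 91.2 at P0 and 12.6, 26.5 and 14.2 at P3. E13.5 and P3 overlapped, and the stages between them stood above both. Pcdhgc4 rose to E16.5 (log2 fold change 1.55, SE 0.379, limma adjusted p = 0.00128), rose again to P0 (1.27, SE 0.379, limma adjusted p = 0.00801) and fell by 2.23 to P3 (SE 0.379, limma adjusted p = 5.11e-05).

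Pcdhgc3 (ENSMUSG00000102918, chr18:37806364-37841873), whose cytoplasmic part is known to act on dendrite branching through Axin1, varied least among the C-type rows tested. Its values were 12.7, 17.4 and 16.8 at E13.5, 21.9, 27.9 and 20.6 at E16.5, 26.6, 35.3 and 32.3 at P0 and 11.6, 28.5 and 46.6 at P3. Its P3 libraries overlapped those of every other stage. No difference between neighbouring stages passed the test by limma (adjusted p = 0.236, 0.422 and 0.522). With equal library totals all 3 passed, at log2 fold changes of 1.03, 1.06 and -1.12 (limma adjusted p = 0.0371, 0.0375 and 0.0249). P0 against E13.5 passed narrowly (log2 fold change 0.97, SE 0.426, limma adjusted p = 0.0436), and this call was lost when any 1 of 9 libraries was left out.

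Outside the C-type, Pcdhga12 (ENSMUSG00000102428, chr18:37765580-37841873) was the row with the highest level at E13.5. The libraries had 70.7, 101 and 61.0 at E13.5, 101, 118 and 118 at E16.5, 60.6, 73.4 and 98.5 at P0 and 36.8, 55.0 and 94.1 at P3. It lay between 36.8 and 118 in every library, and with the deposited factors only P3 against E16.5 passed the test (log2 fold change -0.95, SE 0.316, limma adjusted p = 0.0137), a call lost without P3 library 1 (limma adjusted p = 0.0850). Under other scalings more comparisons of this row passed. E16.5 against E13.5 did so with median-of-ratios factors (0.78, limma adjusted p = 0.0339) and equal library totals (1.06, limma adjusted p = 0.00802). P3 against P0 passed with median-of-ratios factors (-0.83, limma adjusted p = 0.0263) and with equal totals (-1.22, limma adjusted p = 0.00305), and also with the deposited factors when P3 library 4 was left out (-0.74, limma adjusted p = 0.0368). P0 against E13.5 passed with equal totals (1.16, limma adjusted p = 0.00389). For P0 against E16.5 its log2 fold change was -0.56 (SE 0.316, limma adjusted p = 0.139), and the sign turned to 0.10 with equal library totals. Gm26672, a noncoding gene on the other strand, overlaps exons of Pcdhga12 and had at most 21.2 normalized counts in any library; without a stated strand setting their reads cannot be told apart.

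Pcdhgb5 (ENSMUSG00000103749, chr18:37731009-37841873) was the B-type row with the largest rise to E16.5. Its values were 2.11, 0 and 0 at E13.5, 72.5, 89.3 and 75.2 at E16.5, 42.8, 44.6 and 24.6 at P0 and 5.81, 16.7 and 0 at P3. Its rise to E16.5, from 2 to 267 reads over the 3 libraries, passed the test (limma adjusted p = 2.90e-06). The P0 libraries all lay below those of E16.5, but the difference was not called by limma (log2 fold change -1.10, SE 0.767, adjusted p = 0.226) and was called by edgeR (adjusted p = 0.0399). From P0 to P3 it fell by 2.91 on the log2 scale (SE 0.767, limma adjusted p = 0.00257). That fold rests on the P3 libraries taken: it was -1.76 without P3 library 4, which had no read of this row, and -3.83 without P3 library 3, and was called in both cases.

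Ratios within a library do not depend on the scaling. They were chosen after the values were seen and are given as a description. Pcdhac2 was 0.635 to 0.895 times Pcdhgb5 in the E16.5 libraries and 4.67 to 9.0 times at P0. Pcdhgc5 was 0 to 0.138 times Pcdhga12 at E13.5, 0.882 to 1.38 times at E16.5, 1.67 to 3.41 times at P0 and 0.527 to 1.26 times at P3. For Pcdhac2 relative to Pcdhgc5 the range was 0.386 to 0.545 at E16.5, 1.10 to 1.35 at P0 and 0.292 to 0.629 at P3. In each of these ratios, P0 lay above E16.5 without overlap.

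**Figure D3:**
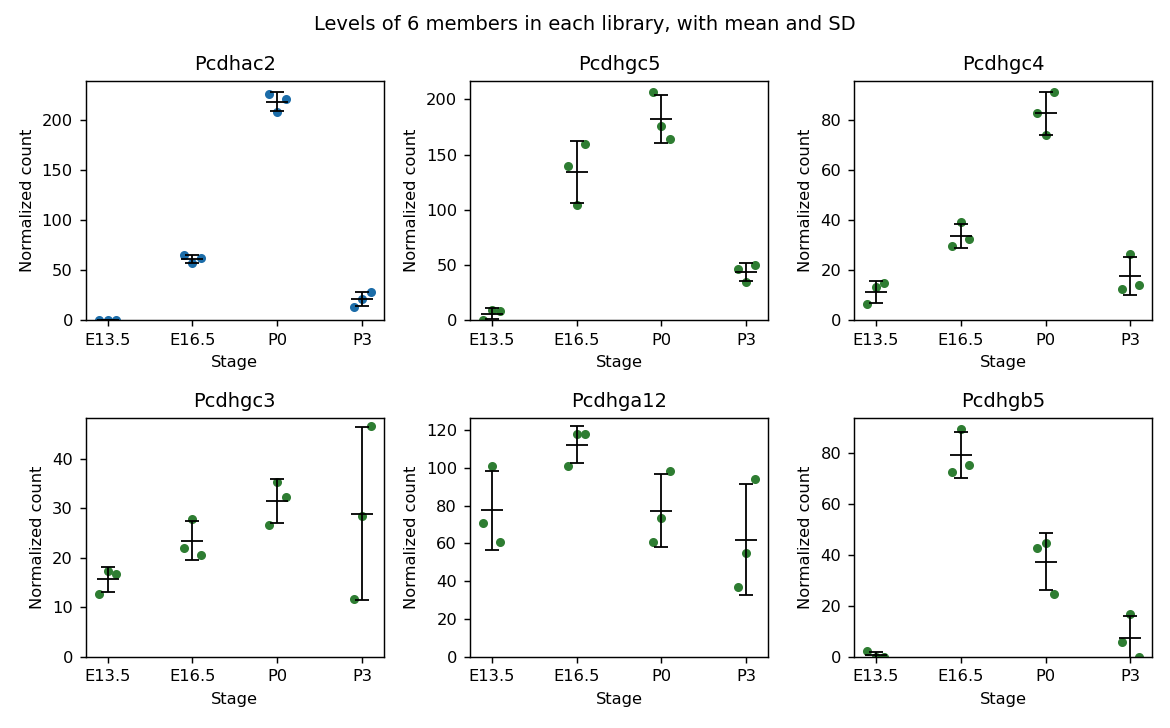
Normalized counts of Pcdhac2, Pcdhgc5, Pcdhgc4, Pcdhgc3, Pcdhga12 and Pcdhgb5 in each library by stage, with mean and SD of 3 libraries (each panel has its own axis, and lower bars end at 0). Pcdhac2 and Pcdhgc4 stand highest at P0, Pcdhgb5 at E16.5, and Pcdhga12 overlaps between most stages.

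Levels of different rows were compared per kilobase of exon sequence that no other gene covers, in normalized counts per kilobase. At E13.5, Pcdhga12 was highest at 18.8 ± 5.09, followed by Pcdhgc3 at 8.59 ± 1.42 and Pcdhgc4 at 3.27 ± 1.28, with no overlap between these 3. At E16.5, Pcdhgc5 (29.2 ± 6.12) and Pcdhga12 (27.3 ± 2.36) overlapped, and Pcdhac2 came next at 20.2 ± 1.36. At P0 the order was Pcdhac2 at 72.2 ± 3.08, Pcdhgc5 at 39.5 ± 4.72 and Pcdhgc4 at 23.8 ± 2.49, with no overlap between these rows. At P3 the highest, Pcdhgc3 at 15.9 ± 9.59, overlapped Pcdhga12 at 15.0 ± 7.10, and with all exon sequence Pcdhga12 came first. Of the genes tested with a length, 53.2% had a lower level per kilobase than Pcdhac2 at P0, and 42.3% had a lower one than Pcdhga12 at E13.5.

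Between E13.5 and E16.5, 14 of the 16 tested members rose and none fell by limma, with adjusted p under 0.05 over the 22384 genes tested; of all those genes, 45.5% rose. The 2 members not called were Pcdhga12 and Pcdhgc3, and with equal library totals both were. The median log2 fold change of the 16 was 2.84, or 2.37 with the 3 members at 0 reads at E13.5 set to their lower bound, beside 0.31 over all genes. Called A- and B-type rows included Pcdhgb4, at 4.22, 0 and 0 at E13.5 and 33.4, 51.1 and 41.2 at E16.5, and Pcdhgb7, at 8.44, 1.09 and 2.10 and then 26.7, 38.1 and 31.7. Both stood above all their E13.5 libraries. Pcdhga4 (2.11, 0 and 5.26, then 5.73, 3.72 and 7.91) overlapped between the stages, and its call (limma adjusted p = 0.0498) was not made by edgeR (adjusted p = 0.164).

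Between E16.5 and P0, 5 of the 16 rose and none fell by limma, against 27.6% of all genes that rose and 33.4% that fell. They were Pcdhac2, Pcdhb3, Pcdhgc4, Pcdhga4 and Pcdhga8. Pcdhga8 had 7.63, 0 and 4.75 at E16.5 and 24.0, 39.1 and 22.7 at P0 (limma adjusted p = 0.00107). The median over the 16 was 0.59 on the log2 scale and -0.01 over all genes. This count was the least stable. It was 15 with equal library totals, but more members than these 16 then reached the limit for testing. Of all 23221 genes tested with equal totals, 12743 rose and 3443 fell. The count was 3 without E16.5 library 3, and 2 without any 1 of the 3 P0 libraries, when 12 or 13 members reached the limit for testing. The 3 rows with lower means at P0 and no overlap besides Pcdhgb5 were Pcdhgb4, Pcdhgb7 and Pcdhga12, none of them called (36.3% of all genes were lower without overlap). The size factors bear on this comparison, since they averaged 1.94 ± 0.118 at P0 and 1.13 ± 0.117 at E16.5.

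Between P0 and P3, 14 of the 16 fell and none rose by limma, against 36.4% of all genes that fell. Pcdhga12 and Pcdhgc3 were again the 2 not called with the deposited factors, while both passed with equal library totals. The median was -2.49 on the log2 scale, beside 0.05 over all genes. Pcdhga8 had no reads at P3 and was at least 9.65-fold lower than at P0. Pcdhga5 went from 42.3, 31.5 and 25.1 to 0, 3.93 and 2.02 (log2 fold change -3.76, SE 0.608, limma adjusted p = 3.04e-05). Both comparisons with P0 share the P0 libraries, so they are not independent.

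**Figure D4:**
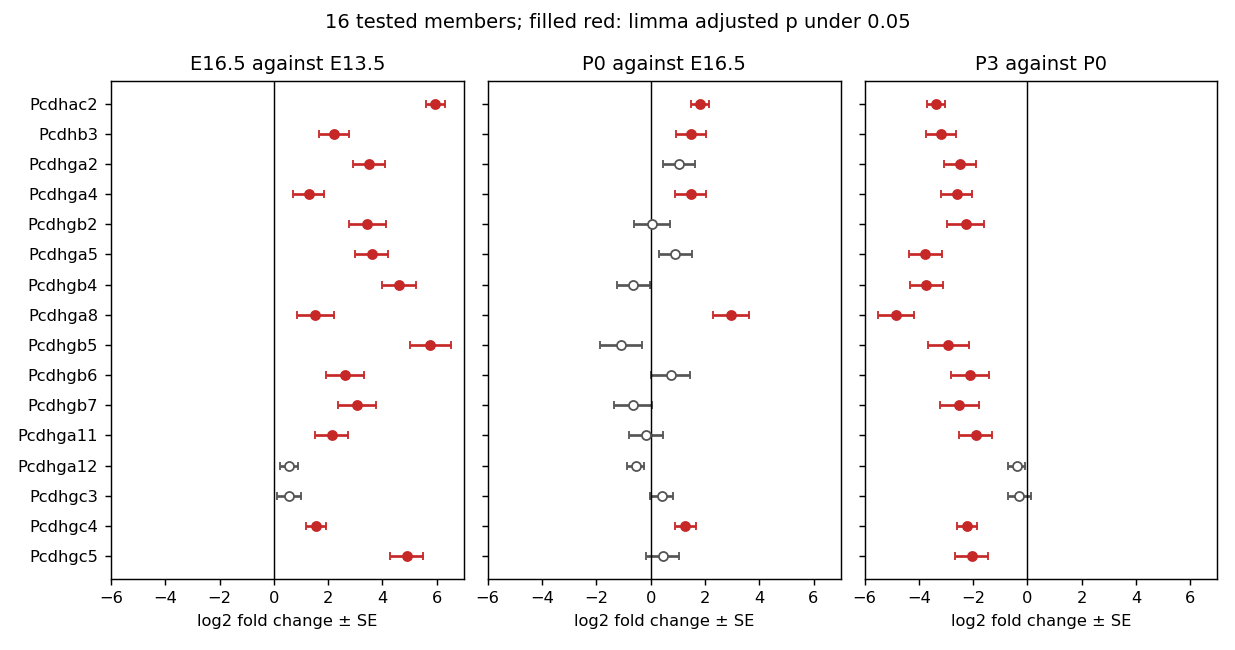
Log2 fold change with SE of the 16 tested members between neighbouring stages, from limma on log2(normalized count + 1); filled red points passed an adjusted p of 0.05. Of the 16 points, 14 are filled to the right of 0 for E16.5 against E13.5, 5 for P0 against E16.5, and 14 to the left of 0 for P3 against P0; the points of members at 0 reads in a stage depend on the pseudocount.

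In the comparisons that stay within 1 value of the genotype tag, the members again were higher at P0 and lower at P3. From E13.5 to P0, 15 of 16 rose by limma and none fell, against 45.7% of all genes that rose; Pcdhga12 did not pass (log2 fold change 0.00, SE 0.316, limma adjusted p = 0.998). The median was 3.59 on the log2 scale, or 3.12 with members at 0 reads at their bound, beside 0.20 over all genes. From E16.5 to P3, 13 of 16 fell and none rose, against 35.2% of all genes that fell; the 3 not called were Pcdhga4, Pcdhgb6 and Pcdhgc3. The median was -1.65, or -1.57 with the bound, beside -0.05 over all genes. Over all 4 stages the F-test called 14 of 16, all but Pcdhga12 and Pcdhgc3, against 95.2% of all genes. Of the 54 rows with a read, 41 had their highest mean at P0, 11 at E16.5, 2 at P3 and 0 at E13.5. The like share over all genes with a read is not given here. Most of these rows were below the limit for testing, and over all genes a read was also found most often at P0 (70.5%, against 47.3% at E13.5). Among the 16 tested rows the highest mean was at P0 for 11 and at E16.5 for 5, beside 29.9% and 19.3% of all genes tested. The other genes tested had it at E13.5 (30.7%) or P3 (20.2%).

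Markers of cells other than germ cells also differed between stages, some summed levels in the course of the members and some not. The summed level of 6 neuron markers was 918 to 998 at E13.5, 3044 to 3582 at E16.5, 3038 to 3341 at P0 and 890 to 1042 at P3. By limma all 6 rose from E13.5 to E16.5, where 45.5% of all genes rose, and 5 fell from P0 to P3, where 36.4% fell. Snap25 was at 0 at E13.5. The 6 Sertoli cell markers summed to 1185 to 1884, 2681 to 5630, 10631 to 19947 and 4271 to 6034 in the 4 stages, and none was at 0. The 5 peritubular cell markers summed to 174 to 217, 1062 to 1519, 3025 to 3325 and 865 to 909, and none was at 0. Blood (4 genes) summed to 66.3 to 382, 1735 to 2345, 1522 to 2388 and 287 to 512. Leydig cells (5 genes) summed to 571 to 723, 608 to 7681, 1078 to 6106 and 179 to 267. By limma, 3 of 5 Sertoli, 4 of 4 peritubular, 3 of 3 blood and 1 of 4 Leydig markers tested rose from E13.5 to E16.5. From P0 to P3, 5, 3, 2 and 4 of them fell, in the same order. The sums of the macrophage or endothelial list and of the glia and Schwann cell list took another course. The 6 macrophage or endothelial markers had their highest sum at E13.5, at 4413 to 5150. Later sums were 1352 to 1422, 744 to 904 and 743 to 908. Single genes differed from the sum, since by limma 5 of these 6 rose and 1 fell from E13.5 to E16.5. From P0 to P3, 1 rose and 3 fell. Only 1 of the 6 had its highest mean at E13.5, beside 30.7% of all genes. The 6 markers of glia and Schwann cells summed to 1278 to 1712, 865 to 1099, 1350 to 1652 and 1737 to 2346. This sum was lowest at E16.5 and highest at P3. Of the 5 tested, however, 4 had their highest mean at P0, beside 29.9% of all genes, and 1 at P3. From E13.5 to P0, 4 rose and 1 fell, and from P0 to P3, 1 rose and 2 fell (limma). Germ cell markers, 6 genes including Ddx4 and Dazl, summed to 289021 to 306346, 186154 to 203559, 131719 to 140591 and 219611 to 237413. Single genes went both ways, with 3 rising and 3 falling by limma from E13.5 to E16.5, and the same counts from E13.5 to P0. Over all genes, 45.5% and 45.7% rose in these comparisons. The median log2 fold change of the 6 from E13.5 to P0 was -0.24, or 0.93 with equal library totals. The part of other cells in the levels of the clustered protocadherins was not tested. In bulk libraries, fewer cells of a type and less RNA per cell cannot be told apart.

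The non-clustered protocadherins, single genes outside the arrays with like cadherin repeats, were also most often highest at P0. Of 12 tested, 8 rose and 1 fell from E13.5 to E16.5, 10 rose and 0 fell to P0, and 2 rose and 9 fell to P3 (limma). Over all genes tested, 45.5% rose and 34.6% fell in the first of these comparisons, 27.6% and 33.4% in the second and 40.1% and 36.4% in the third. Their median log2 fold changes were 1.86 (1.496 with genes at 0 at their bound), 2.04 and -3.29 (-2.92 with the bound). Pcdh19, a partner of N-cadherin in adhesion, had 22.2, 27.2 and 33.7 at E13.5, 67.8, 84.6 and 75.2 at E16.5, 277, 302 and 243 at P0 and 62.0, 80.5 and 85.0 at P3. Pcdh10 had 0 at E13.5, 14.3, 2.79 and 11.1 at E16.5, 111, 158 and 129 at P0 and 14.5, 2.95 and 11.1 at P3. Pcdh1 and Pcdh12 rose from P0 to P3, with log2 fold changes of 2.87 and 1.56 (limma adjusted p = 1.73e-08 and 8.36e-05). Of these 12, 10 had their highest mean at P0, beside 29.9% of all genes tested. The classical cadherins were mixed, with 5 of 8 rising and 2 falling from E13.5 to E16.5, 5 rising and 1 falling to P0, and 3 rising and 4 falling to P3 (limma); with equal library totals the last 2 pairs were 7 and 0, and 1 and 5.

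Genes known to act on promoter choice or silencing of the arrays were more often lower where the members were higher, with the deposited scaling. Of 25, 4 rose and 20 fell from E13.5 to E16.5, 5 rose and 14 fell to P0, and 16 rose and 5 fell to P3 (limma), where over all genes 34.6% fell, 33.4% fell and 40.1% rose. With equal library totals the same counts were 4 and 16, 9 and 6, and 8 and 11, so the direction of the list at P0 rests on the scaling. Rest, a repressor of neuronal genes, kept its direction under each scaling. It had 17294, 17829.5 and 18537 at E13.5, 5626, 5974 and 5987 at E16.5, 1717, 1437 and 1488 at P0 and 14983, 16007 and 16595 at P3. All 3 P0 libraries were below those of every other stage, and the log2 fold change against E16.5 was -1.92 (SE 0.0740, limma adjusted p = 3.01e-12), or -1.26 with equal totals. Smchd1, which silences clustered protocadherins in other tissues, had 4994 ± 115, 2809 ± 94.1, 1673 ± 93.5 and 4410 ± 290 in stage order. Its fall from E16.5 to P0 (log2 fold change -0.75, SE 0.0713, limma adjusted p = 1.21e-07) was -0.09 and not called with equal totals. Ctcf had 3755, 3906 and 4017 at E13.5 and 1015, 1097 and 1176 at E16.5, a fall under each scaling. From E16.5 to P0 its log2 fold change was -0.33 (SE 0.0830, limma adjusted p = 0.00246) and turned to 0.33 with equal totals. The cofactor of DNA methylation Dnmt3l was among the genes that rose to E16.5, from 23.2, 17.4 and 12.6 to 22397, 19541 and 19086, and its P0 values were 7139, 6195 and 6521.

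The genes for partners and processing of the proteins were divided. Of 18, 4 rose and 13 fell from E13.5 to E16.5, 8 rose and 3 fell to P0, and 11 rose and 5 fell to P3 (limma), where the shares over all genes were 45.5% and 34.6%, 27.6% and 33.4%, and 40.1% and 36.4%; with equal library totals the last 2 pairs were 17 and 1, and 6 and 9. Nlgn1, a synaptic adhesion protein, was at 0 reads at E13.5. It had 13.4, 23.2 and 16.6 at E16.5, 164, 128 and 94.6 at P0 and 5.81, 5.89 and 18.2 at P3.

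Genes that flank the arrays on the chromosome were also fitted. Of the 13 tested, 5 rose and 8 fell from E13.5 to E16.5, 2 rose and 10 fell to P0, and 10 rose and 1 fell to P3 (limma), beside the same shares over all genes (45.5% and 34.6%, 27.6% and 33.4%, 40.1% and 36.4%); with equal library totals the counts were 6 and 6, 4 and 5, and 6 and 3. Hdac3, a histone deacetylase gene, had 6748 ± 465, 2079 ± 137, 2083 ± 74.9 and 6857 ± 49.5 in stage order. It was lower at E16.5 and P0 than at E13.5 and P3 under each scaling, the reverse of the called members.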

How the data were processed

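Reads of 12 libraries of mouse gonocytes were counted per gene by the authors and deposited as 1 table of normalized signal, each gene's read count divided by 1 size factor per library. The submitters' processing notes name bcl2fastq 2.20, cutadapt 1.18, HISAT2 2.1.0, featureCounts 1.5.2, DESeq2 1.26.0 and the builds mm10 and GRCm38. The annotation release, strand setting and the handling of reads on exons of several genes are not given in the sources used here. Per the labels, the SMART-seq v4 Ultra Low Input and TruSeq mRNA kits were used, the first of which amplifies cDNA. In every library 100% of deposited signal values were whole multiples of the smallest within a tolerance of 0.001, so whole reads were recovered, 40946616 to 51533747 per library.

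Symbols, positions and exons came from GENCODE M21 (GRCm38), which matched 55141 of 55487 identifiers (99.4%). The members and gene lists were chosen with earlier results of these data known. The 22384 genes that reached 10 normalized counts in 3 or more libraries were tested on log2(normalized count + 1) with limma 3.58.1 in R 4.3.3 (lmFit, eBayes with trend), all 4 stages in 1 fit with 8 residual degrees of freedom and Benjamini-Hochberg adjusted p under 0.05 over all genes. Columns carry a stage and the numbers 1, 3 and 4, so each was assigned to its stage only. A floor of 3 reads per library was used for lower bounds; bounds cover counting error only, since the reads carry no molecular identifiers. Members named are the C-type rows, the 3 highest means of each cluster, and for each pair of neighbouring stages the 3 largest rises and falls among called rows whose stages do not overlap and whose higher mean reached 50; other members are named where a count turned on them, after their values were seen. Alternatives were TMM, median-of-ratios and equal-total scaling, pseudocounts of 0.1 and 10, testing with no filter or with a mean limit of 100, requiring also a log2 change of 1, fitting the 2 stages alone, leaving out each library, the column number as a block, and edgeR 4.0.16 and DESeq2 1.42.0 on recovered reads. On simulated data with 200 of 21437 genes changed 4-fold at P0, limma recovered 87% for P0 against E16.5 and 91.5% for P3 against P0. The spread was assumed, and far fewer genes changed than in the data. Changed genes were drawn above a mean level that Pcdhb3 (4.22 over all libraries) and other tested members did not reach. These rates therefore do not carry over to such members. Positions use the genome's forward strand, and no sequence is shown. Python 3.11.15 with pandas 2.3.3, numpy 2.4.6 and matplotlib 3.10.9 was used for the rest.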

Additional observations from a re-analysis of the deposited data

How the results depend on the processing

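No called value of Pcdhac2, Pcdhb3, Pcdhga12, Pcdhgb5, Pcdhgc3, Pcdhgc4 or Pcdhgc5 turned its sign under the alternatives run, but Ctcf did for P0 against E16.5, called at -0.33 and with equal library totals at 0.33. Among the 10 values of these members that turned, none called, Pcdhgc3 for P3 against E16.5 had -0.0717 with median-of-ratios factors and -0.0661 with equal totals (0.10 with the deposited factors), and -0.33 to 0.63 without 1 library; for P3 against P0 it had -0.74 to 0.22 without 1 library. Pcdhga12 turned to 0.10 with equal totals for P0 against E16.5, and for P0 against E13.5 (0.00) to -0.000265 with edgeR, -0.00127 with DESeq2 and -0.18 to 0.21 without 1 library. With equal totals Pcdhga11 and Pcdhgb4 also turned for P0 against E16.5, Pcdhga11 with median-of-ratios factors too. Relative to the deposited factors, equal library totals moved the all-gene median on the log2 scale by 0.53 for E16.5 against E13.5, 0.69 for P0 against E16.5, -0.91 for P3 against P0 and 1.31 for P0 against E13.5; median-of-ratios factors moved it by 0.24, 0.27, -0.47 and 0.55, and TMM by 0.10, 0.12, -0.18 and 0.23. Of all genes called for P0 against E16.5, 45.2% were higher with the deposited factors, 59.6% with median-of-ratios factors and 78.7% with equal totals. The count of called members for P0 against E16.5 was 15 with equal totals (of 23 tested), 3 with a pseudocount of 0.1, 9 with a pseudocount of 10, 17 with no filter (of 54) and 9 with only the 2 stages; both counts of 9 held 7 higher and 2 lower. With equal totals the counts were 23 of 23 for P3 against P0, for P0 against E13.5 and by the F-test, and with no filter they were 33, 40 and 31 of 54. Over all 23221 genes tested with equal totals, 4577 rose and 13565 fell for P3 against P0. For P0 against E13.5, 15372 rose and 4550 fell, and for P0 against E16.5, 12743 rose and 3443 fell. Shares over all genes with no filter are not given here. Leaving out each library (leave-one-out) gave 10 to 14 called for E16.5 against E13.5, 2 to 6 for P0 against E16.5, 9 to 15 for P3 against P0, 10 to 15 for P0 against E13.5, 8 to 15 for P3 against E16.5 and 10 to 15 by the F-test. The lowest counts were 3 without E16.5 library 3 for P0 against E16.5 (2 without any P0 library), 9 without P0 library 1 for P3 against P0 and 8 without E16.5 library 4 for P3 against E16.5. Log2 ratios of the sums for P0 against E16.5 were 2.02, 2.16 and 2.57 for the alpha cluster with TMM, median-of-ratios and equal-total scaling, 1.65 for beta with equal totals, and 0.50 and 0.90 for gamma with median-of-ratios and equal totals. For P3 against P0 they were -4.14 for alpha with equal totals, -2.53 and -2.93 for beta and -2.20 and -2.60 for gamma with median-of-ratios and equal totals. For E16.5 against E13.5 gamma had 2.64 with equal totals. Per kilobase of all exon sequence, the rows that led per kilobase of their own had 11.7 (Pcdhga12, E13.5), 17.6 (Pcdhgc5, E16.5), 37.1 (Pcdhac2, P0) and 5.25 (Pcdhgc3, P3); at P3 Pcdhga12 (9.30) and Pcdhgc5 (5.70) then stood above Pcdhgc3. A mean of at least 100 left no member to count. Of the values for these members, 700 kept their direction and side of the threshold, 15 passed it newly and 30 no longer passed it. The numbers 1, 3 and 4 of the column heads recur at each stage but differ from those in the sample titles; deviations from the stage means of same-numbered libraries correlated between -0.0356 and 0.0423 over 18 pairs, and a library matched its own number best in 9 of 36 comparisons. With the number as a replicate block, an alternative chosen after seeing the data, 13, 5, 14, 15 and 12 members were called in the comparisons in the order of the leave-one-out counts, and 15 by the F-test.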

Other observations

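Other gene models that overlap the arrays were also counted. Gm10544, a noncoding gene on the strand opposite to the alpha cluster, had 0 reads at E13.5, 0.954, 1.86 and 5.54 normalized counts at E16.5, 10.4, 24.997 and 14.5 at P0 and 16.47, 8.84 and 7.09 at P3. Gm26672, opposite to the gamma cluster, had 0, 0 and 5.26 at E13.5, 7.63, 5.58 and 10.3 at E16.5, 14.6, 21.2 and 7.72 at P0 and 1.94, 3.93 and 1.01 at P3. Gm42416, Gm37013, Gm37388 and Gm38182, which have 0 exon bases that no other gene covers, were listed at 0 in every library.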
